A study of Mus musculus and Sus scrofa with 30 samples.

Results

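In 3T3-L1 cells, cultures given rosiglitazone were compared with cultures given magnolol, 6 of the 30 samples of the series, with 3 libraries per compound and no vehicle library in the comparison. 3T3-L1 is a mouse embryonic fibroblast line that can turn into fat cells. Both groups were differentiated in DMEM with 0.75 µg/mL insulin, 75 nM dexamethasone, 37.5 µM isobutyl methylxanthine (IBMX) and 10% fetal bovine serum, and the compound was present during differentiation. The labels give day 5 for these samples, and the doses of the compounds are not stated there. The series also holds vehicle (DMSO), dicoumarol and dicoumarol plus magnolol groups, and the same 5 treatments in DFAT cells, which are porcine de-differentiated fat cells differentiated for 5 days in Advanced DMEM with biotin, pantothenate, 2% serum, IBMX at 12.5 µM and dexamethasone at 0.5 µM, with no insulin listed. mRNA was sequenced from libraries made with a stranded kit. The labels do not say that replicates were separate cultures, so p-values measure the spread between these samples, which may be technical.

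Rosiglitazone is a synthetic thiazolidinedione and a full agonist of PPARγ, the nuclear receptor that drives fat cell formation. Magnolol is a lignan from magnolia bark that has been described as a ligand of PPARγ and of its partner RXR. Ligand-bound PPARγ pairs with RXR on direct repeat elements near genes of lipid storage, fatty acid uptake and adipokine production, and in adipocytes it works with C/EBPα.

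Values are normalised read counts, and differences are rosiglitazone minus magnolol on the log2(value + 1) scale with their standard errors (SE), tested with limma across all genes with Benjamini-Hochberg adjustment. A gene was called at an adjusted p under 0.05. Estimated depth ran from 24.9 to 27.2 M (mega) reads in the magnolol libraries and from 22.8 to 27.1 M reads in the rosiglitazone libraries. The first principal component, 59.5% of the variance, placed all magnolol libraries on one side and all rosiglitazone libraries on the other. Rosiglitazone replicate 2 was nearest to magnolol and rosiglitazone replicate 1 farthest. The libraries stood in the same order by their correlation with transcript length, given below. Mitochondrially encoded transcripts took 5.94 to 7.46% of the counts with magnolol and 7.66 to 14.3% with rosiglitazone. The summed level of 8 adipocyte markers was 86224 to 130722 with magnolol and 315856 to 559840 with rosiglitazone, and that of 8 fibroblast markers was 383804 to 455358 and 276671 to 351971. Among them, 6 adipocyte markers were called higher and 4 fibroblast markers lower, while Col1a1, Col1a2, Col3a1 and Vim were not called. Of the other cell types, all 6 listed endothelial markers and all 5 listed epithelial markers were under the minimum mean of 10. Of 8 macrophage markers 6 were listed, and these summed to 294 to 306 with magnolol and 181 to 217 with rosiglitazone. Cd14 and Lyz2 were called lower, Csf1r and Cd68 were not called, and Itgam and Aif1 were under the minimum mean. Cd68 averaged 32.3 with magnolol and 45.6 with rosiglitazone. Osteoblast markers summed to 1111 to 1400.2 with magnolol and 938 to 1065 with rosiglitazone (2 of 7 called lower), and chondrocyte markers to 2981 to 3229.6 and 2091 to 2415 (1 of 6 called lower). In bulk RNA, a change in the number of fat cells and a change in RNA per cell cannot be told apart.

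Of 15744 genes tested, 4216 (26.8%) differed between the compounds, 2299 (14.6%) higher with rosiglitazone and 1917 (12.2%) higher with magnolol. The difference reached 2-fold for 376 of the first and 344 of the second, and 4-fold for 51 and 7. The groups did not overlap in 3835 genes (24.4%) with rosiglitazone above and in 3374 (21.4%) with magnolol above. These shares are the background where groups below are said to stand apart or not to overlap. Most genes below were named because they were called, so groups standing apart there are no further evidence. Same-numbered libraries deviated together, and with the replicate number as a block the test called 7145 genes, 3632 (23.1%) higher with rosiglitazone and 3513 (22.3%) higher with magnolol. The block fit included all 4216 genes, and 4215 of them moved the same way in all 3 pairs. These genes were picked by a test on the same libraries, so both counts largely follow from that choice and are no separate check. Without the block, the count of calls fell to 1485 without magnolol replicate 2, to 1961 without magnolol replicate 3 and to 2673 without rosiglitazone replicate 3. The difference also followed transcript length (Spearman's rho = -0.42 across 15525 genes, a description in which genes are not independent). With genes split by length into 5 equal groups, its median was 0.33 in the shortest and -0.27 in the longest, while the median over all genes was 0.00. Beside a gene group below, counts with the length trend removed from each library are given where they differ by over 1.5 times, and for some mitochondrial and matrix groups. With that trend removed, 1951 of 15525 genes were higher with rosiglitazone and 1558 higher with magnolol, the background for those counts. For counts without the correction or the block, the background is 14.6% and 12.2%. Of the genes tested, 281 reached the minimum mean of 10 through the rosiglitazone group alone and 231 through the magnolol group alone, and 48 and 29 of these were called. Without them the counts were 2251 and 1888. Such genes had to differ in that direction on average to be tested, and they remain in the medians of the gene groups below. Each library's deviation also followed length, with rho (replicates in order) of 0.20, 0.34 and 0.44 for magnolol and -0.46, -0.13 and -0.28 for rosiglitazone. This was the order of the libraries on the first principal component, within each group too. The part of the length trend in that component was not tested. Whether length itself or the kind of gene sets the length trend was not tested.

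**Figure D1:**
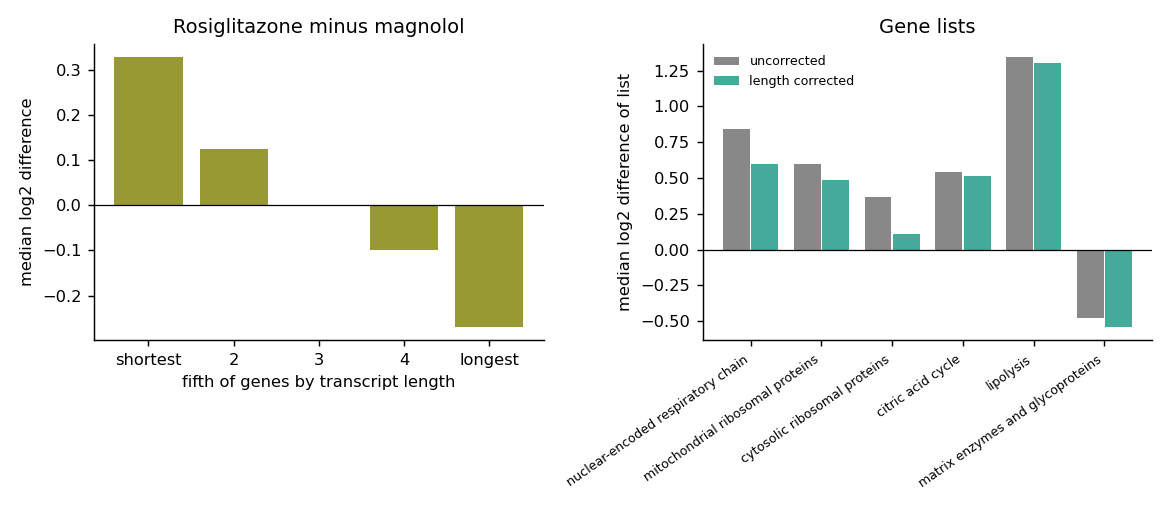
Left, median log2 difference (rosiglitazone minus magnolol, 3T3-L1) in 5 equal groups of genes ordered by transcript length. Right, median log2 difference of 6 gene lists before and after the length trend was removed from each library. The cytosolic ribosomal proteins drop from 0.37 to 0.11, while lipolysis stays at 1.34 and 1.30.

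Genes of lipid storage were higher with rosiglitazone. Fabp4, the fatty acid binding protein of fat cells (chromosome 3, 10269148 to 10273636, as deposited, with the build not settled), measured 24975, 17419.9 and 13819.6 with magnolol and 223878, 119470.0 and 161477 with rosiglitazone. That is an 8.96-fold difference (log2 3.16 ± 0.26, adjusted p = 0.00109), and no magnolol library reached the lowest rosiglitazone library. Cidec, which fuses lipid droplets, measured 6883, 3597 and 4894 with magnolol and 40463, 26297 and 37315 with rosiglitazone (log2 2.79 ± 0.23, adjusted p = 0.00109). Plin1, the droplet coat protein that gates lipolysis, measured 1828, 1144 and 1807 with magnolol and 5395, 4049.6 and 5702 with rosiglitazone (log2 1.68 ± 0.19, adjusted p = 0.00171). G0s2, an inhibitor of the triglyceride lipase, measured 172, 93.9 and 132 with magnolol and 1016, 471 and 820.0 with rosiglitazone (log2 2.50 ± 0.29, adjusted p = 0.00171). In each of these 4 genes replicate 2 was the lowest library of the rosiglitazone group. Of 12 lipid droplet genes tested, 9 were higher with rosiglitazone and 1 lower (median 0.68, against 0.00 for all genes). The 1 lower gene was Plin3, a droplet coat protein found in many cell types (log2 -0.43, adjusted p = 0.0159), which was not called without magnolol replicate 2 (adjusted p = 0.0566) or without magnolol replicate 3 (adjusted p = 0.0603).

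Fatty acid uptake followed the same direction. Cd36, a fatty acid transporter, measured 2252, 1187 and 2811 with magnolol and 6005, 5555 and 10806 with rosiglitazone (log2 1.86 ± 0.32, adjusted p = 0.00503). Lpl, the lipase that frees fatty acids from circulating lipoproteins, measured 90202, 69342 and 59614 with magnolol and 263807, 154183 and 166200.0 with rosiglitazone (log2 1.39 ± 0.24, adjusted p = 0.00509). Acsl1, which activates long-chain fatty acids, differed by 3.58-fold (log2 1.84, adjusted p = 0.00139). Of 14 uptake and binding genes tested, 7 were higher with rosiglitazone and 0 lower (median 0.43, groups apart in all 3 genes named), against 14.6% and 12.2% of all genes. With the block the counts were 10 higher and 1 lower, and 1 was lower without rosiglitazone replicate 2.

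Lipolysis genes had the largest median of all 33 lists, 1.34, with 14 of 18 higher with rosiglitazone and 1 lower. The lower count was 0 without magnolol replicate 1, 2 or 3 or rosiglitazone replicate 1. Of the 18 genes 3 reached the minimum mean through the rosiglitazone group alone, and without them 12 were higher. Adrb3, the β3-adrenergic receptor through which catecholamines start lipolysis, measured 3.88, 2.11 and 2.93 with magnolol and 44.98, 21.5 and 30.7 with rosiglitazone. It reached the minimum mean through the rosiglitazone group alone, so it had to differ to be tested, and no p is given for it. Aqp7, the channel through which glycerol leaves fat cells, measured 47.5, 30.6 and 76.3 with magnolol and 278, 183 and 415 with rosiglitazone (log2 2.50 ± 0.36, adjusted p = 0.00287). With the length trend removed 15 of the 18 genes were higher and 0 lower. 

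Triglyceride assembly had the same direction in the genes called. Agpat2, an acyltransferase of the glycerol phosphate pathway, measured 2704, 1833 and 1985 with magnolol and 11276, 7124 and 8381 with rosiglitazone (log2 2.03 ± 0.19, adjusted p = 0.00109). Gpat3, which starts the same pathway, measured 715, 423 and 926 with magnolol and 2519, 1599 and 3293 with rosiglitazone (log2 1.85 ± 0.30, adjusted p = 0.00421). Dgat1, which adds the last fatty acid, differed by 2.12-fold (log2 1.08, adjusted p = 0.00509). In all, 4 of 13 genes were higher and 0 lower (median 0.32), 8 of 13 were higher with the block and 7 of 13 with the length trend removed (median 0.45). Among 12 genes of glyceroneogenesis and glycerol handling, 5 were higher and 1 lower, or 2 lower without magnolol replicate 1 or rosiglitazone replicate 2, and 3 lower with the block. Pck1, the enzyme that makes glycerol phosphate precursors without glucose, measured 12.6, 9.49 and 15.7 with magnolol and 81.8, 39.1 and 114 with rosiglitazone (log2 2.44 ± 0.40, adjusted p = 0.00412). Gpd1, which turns dihydroxyacetone phosphate into glycerol phosphate, differed by 3.17-fold (log2 1.67, adjusted p = 0.00351). Pdp1, the phosphatase that activates pyruvate dehydrogenase, was the 1 lower gene at 5403, 7157 and 7066 with magnolol and 2089, 3789.7 and 3775 with rosiglitazone (log2 -1.06 ± 0.22, adjusted p = 0.00934).

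De novo lipogenesis differed less. Its median was 0.08, and 4 of 17 genes were higher with rosiglitazone and 0 lower, or 6 higher and 2 lower with the block. Me1, malic enzyme, which supplies NADPH for fatty acid synthesis, measured 1944, 1563 and 1803 with magnolol and 2971, 2709 and 3201 with rosiglitazone (log2 0.74 ± 0.11, adjusted p = 0.00341). Scd1, a fatty acid desaturase, measured 18079, 13341 and 8211 with magnolol and 16835, 17240.2 and 11022 with rosiglitazone, so the groups overlapped (log2 0.23, adjusted p = 0.546, interval -0.37 to 0.83), and it was called with the length trend removed and the block together (log2 0.38, adjusted p = 0.00748). Scd2, another desaturase, was not called either (log2 -0.01, adjusted p = 0.953, interval -0.30 to 0.28). With the length trend removed the lipogenesis median became 0.33, with 6 genes higher.

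**Figure D2:**
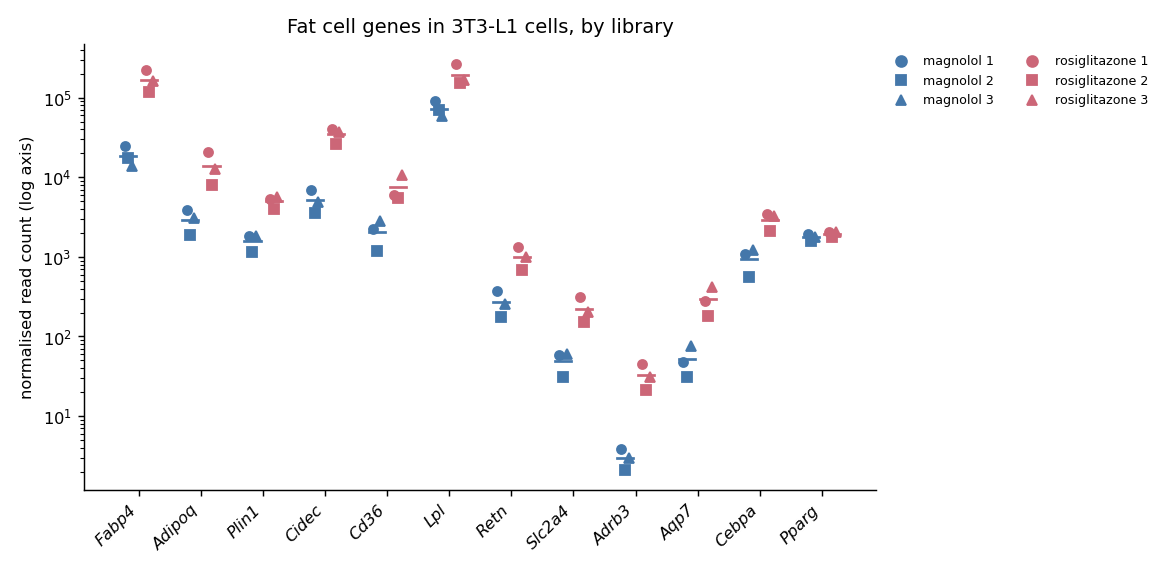
Normalised read counts (log axis) of 12 genes in each of the 6 libraries, with marker shape for the replicate number and a line at the group mean. Pparg overlaps between compounds, from 1567 to 1916 with magnolol and from 1780.1 to 2057 with rosiglitazone, while the other 11 genes do not.

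The receptor itself was not called. Pparg measured 1916, 1567 and 1789 with magnolol and 2052, 1780.1 and 2057 with rosiglitazone, a log2 difference of 0.16 ± 0.11, adjusted p = 0.299, with a 95% interval of -0.09 to 0.41. The value sums its transcript isoforms. Rxra, the RXR partner, measured 10918, 10508 and 10999.5 with magnolol and 9642, 13126 and 10576 with rosiglitazone (log2 0.03, adjusted p = 0.883, interval -0.25 to 0.31). Among 17 nuclear receptors and coregulators, 3 were higher with rosiglitazone and 2 lower, a share near that of all genes, and 1 was lower without magnolol replicate 2, magnolol replicate 3 or rosiglitazone replicate 3. With the block 4 were lower, and with the length trend removed 5 were higher and 1 lower. Ppargc1b, a coactivator of mitochondrial genes, measured 185, 119 and 121 with magnolol and 663, 314 and 456 with rosiglitazone (log2 1.71 ± 0.27, adjusted p = 0.00365). Nr1h3, which encodes LXRα, measured 336, 232 and 356 with magnolol and 623, 472 and 638 with rosiglitazone (log2 0.92 ± 0.19, adjusted p = 0.00884). Ncoa3, a steroid receptor coactivator, was the other way round at 2035, 2227 and 2099 with magnolol and 827, 1203 and 1136 with rosiglitazone (log2 -1.02 ± 0.14, adjusted p = 0.00264).

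Among 16 adipogenic transcription factors, 4 were higher with rosiglitazone and 2 lower, with 7 higher under the block and 1 lower with the length trend removed. Cebpa, the factor that acts with PPARγ in mature fat cells, measured 1079, 559 and 1215 with magnolol and 3494, 2101 and 3248 with rosiglitazone (log2 1.67 ± 0.28, adjusted p = 0.00472), so replicate 2 was lowest in both groups. Zfp423, a preadipocyte commitment factor, was 1.49-fold higher (log2 0.58, adjusted p = 0.0117). Klf4, an early regulator of differentiation, measured 1081, 1330.0 and 987 with magnolol and 441, 598 and 474 with rosiglitazone (log2 -1.17 ± 0.15, adjusted p = 0.00226), higher in every magnolol library. The groups overlapped in none of these 3 genes. Without magnolol replicate 2 the list had 2 higher and 1 lower, and 1 was lower without magnolol replicate 3 or rosiglitazone replicate 1.

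Adipokines were mixed. Adipoq, adiponectin, measured 3838, 1912 and 3085 with magnolol and 20741, 7971 and 12776 with rosiglitazone (log2 2.18 ± 0.33, adjusted p = 0.00341). Retn, resistin, measured 378, 174 and 252 with magnolol and 1318, 683 and 1011 with rosiglitazone (log2 1.92 ± 0.29, adjusted p = 0.00341). Sfrp5, a secreted Wnt inhibitor, measured 11.6, 3.16 and 4.89 with magnolol and 28.3, 32.6 and 32.1 with rosiglitazone, and reached the minimum mean through the rosiglitazone group alone, so no p is given for it. The groups overlapped in none of the 3. Agt, angiotensinogen, measured 14621, 14476 and 13371 with magnolol and 37406, 26901 and 25658 with rosiglitazone (log2 1.06 ± 0.15, adjusted p = 0.00283). Lcn2, lipocalin 2, was lower with rosiglitazone at 2367, 2922 and 2340.0 with magnolol and 1179, 1369 and 1230.0 with rosiglitazone (log2 -1.01 ± 0.12, adjusted p = 0.00171). Of 13 adipokine genes, 7 were higher with rosiglitazone and 1 lower (median 0.82), or 6 higher without Sfrp5, and 3 were lower with the block. Cfd, adipsin, overlapped between groups at 497, 236 and 416 with magnolol and 654, 327 and 834 with rosiglitazone (log2 0.62, adjusted p = 0.204), was called with the block (adjusted p = 0.00115) and was called without rosiglitazone replicate 2 (log2 1.01, adjusted p = 0.0258). Lep, leptin, and Ucp1, the uncoupling protein of brown fat, were under the minimum mean.

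Of 22 insulin signalling genes, 5 were higher with rosiglitazone and 1 lower, with 7 higher and 8 lower under the block, and 3 higher without magnolol replicate 2. The lower count was 2 without rosiglitazone replicate 2 and 0 without any 1 of the other 5 libraries. With the length trend removed 8 were higher and 2 lower, and the median turned from -0.07 to 0.18. Slc2a4, the insulin-regulated glucose transporter GLUT4, measured 58.2, 30.6 and 60.7 with magnolol and 309, 152 and 204 with rosiglitazone (log2 2.13 ± 0.32, adjusted p = 0.00323). Irs2, an adaptor of the insulin receptor, measured 1435, 1509 and 1334 with magnolol and 3052, 2872 and 2828 with rosiglitazone (log2 1.03 ± 0.09, adjusted p = 0.00109). Trarg1, a regulator of GLUT4 trafficking, measured 49.5, 46.4 and 131 with magnolol and 221, 194 and 604 with rosiglitazone (log2 2.12 ± 0.47, adjusted p = 0.0122), with replicate 3 highest in both groups, and was not called without magnolol replicate 2 (adjusted p = 0.0587).

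Mitochondrial genes of nuclear origin moved together. Of 76 respiratory chain genes tested, 73 were higher with rosiglitazone and 0 lower, against 14.6% and 12.2% of all genes, with a median of 0.84. These are short genes, with a median transcript length of 1186 bases against 2937 for all genes, and other genes within the middle range of their lengths had a median of 0.21, with 746 of 3130 higher. With the length trend removed 67 of the 76 were higher and the median was 0.60. Cycs, cytochrome c, measured 2360.2, 1830.2 and 2149.6 with magnolol and 8641, 5499 and 8139 with rosiglitazone (log2 1.79 ± 0.17, adjusted p = 0.00109). Uqcr11, a complex III subunit, measured 1165, 887 and 878 with magnolol and 3168, 1903 and 2115 with rosiglitazone (log2 1.27 ± 0.19, adjusted p = 0.00322). Atp5k, an ATP synthase subunit, measured 978, 836 and 852 with magnolol and 2374, 1659 and 2057 with rosiglitazone (log2 1.18 ± 0.14, adjusted p = 0.00171). In these 3 genes rosiglitazone replicate 2 was the lowest of its group and above every magnolol library. The share of all counts taken by this list was 0.644 to 0.743% with magnolol and 1.00 to 1.19% with rosiglitazone, and the groups did not overlap.

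Pyruvate and acetyl-CoA oxidation shared this direction. Of 20 citric acid cycle genes, 17 were higher and 0 lower (median 0.54, and 15 higher with the length trend removed), or 11 higher without magnolol replicate 2. Idh3a, a subunit of isocitrate dehydrogenase, measured 3079, 2564 and 2918 with magnolol and 9815, 7153 and 9768 with rosiglitazone (log2 1.63 ± 0.14, adjusted p = 0.00109). Cs, citrate synthase, measured 7479.8, 6521 and 6662 with magnolol and 12622, 11172 and 12291 with rosiglitazone (log2 0.80 ± 0.10, adjusted p = 0.00226). In both the lowest rosiglitazone library stood above the highest magnolol library. Pdhb, a subunit of pyruvate dehydrogenase, was 2.15-fold higher (log2 1.10, adjusted p = 0.00220). Of 24 genes of mitochondrial fatty acid oxidation, 17 were higher and 0 lower (median 0.47), or 10 without magnolol replicate 2, with 1 lower under the block or without rosiglitazone replicate 2. Hadhb, of the trifunctional protein, measured 926, 783 and 903 with magnolol and 2081, 1604 and 1975 with rosiglitazone (log2 1.11 ± 0.12, adjusted p = 0.00171). Etfb, an electron carrier of the same pathway, was 2.15-fold higher (log2 1.10, adjusted p = 0.00174).

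The 13 protein-coding genes of the mitochondrial genome were less settled. In the fit, 10 were higher with rosiglitazone (median 0.86), but 1 was called without magnolol replicate 2, 3 without magnolol replicate 3, 3 without rosiglitazone replicate 3, 5 with quantile normalisation and 6 with the length trend removed. mt-Nd3, a complex I subunit, measured 11293, 9521 and 9633 with magnolol and 31173, 17458 and 24906 with rosiglitazone (log2 1.24 ± 0.19, adjusted p = 0.00355, and 0.80 with the length trend removed). mt-Nd1, another complex I subunit, measured 171366, 129373 and 133499 with magnolol and 457562, 227462 and 349033 with rosiglitazone (log2 1.21 ± 0.27, adjusted p = 0.0119, and 0.61 with quantile normalisation) and was not called without magnolol replicate 2 (adjusted p = 0.0648). mt-Co1, a complex IV subunit, overlapped between groups at 546957, 430801 and 433235 with magnolol and 1020000.0, 519169 and 800851 with rosiglitazone (log2 0.68, adjusted p = 0.113). It was called with the block (adjusted p = 0.0414) and without rosiglitazone replicate 2 (log2 0.95, adjusted p = 0.0195).

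Among 33 peroxisomal genes, 15 were higher and 1 lower, with 9 higher without magnolol replicate 2 and 5 lower with the block. The lower count was 0 without any 1 library but rosiglitazone replicate 2. Pex16, a membrane biogenesis factor, measured 565, 438 and 481 with magnolol and 1374, 1104 and 1076 with rosiglitazone (log2 1.26 ± 0.14, adjusted p = 0.00157). Acaa1b, a peroxisomal thiolase, measured 39.0, 24.0 and 29.6 with magnolol and 142, 93.6 and 139.5 with rosiglitazone (log2 1.99 ± 0.26, adjusted p = 0.00226). Of 24 genes of branched-chain amino acid breakdown, 12 were higher and 1 lower, and 7 were higher without magnolol replicate 2 or without rosiglitazone replicate 3. The lower count was 0 without any 1 library but rosiglitazone replicate 2, and 0 with the length trend removed. Bcat2, the transaminase of the first step, measured 2694, 1866 and 2244 with magnolol and 5571, 4089 and 5052 with rosiglitazone (log2 1.12 ± 0.15, adjusted p = 0.00265). Bckdhb, of the dehydrogenase complex, was 2.18-fold higher (log2 1.12, adjusted p = 0.00171). Of 24 thermogenic genes 13 were under the minimum mean, including Ucp1, Cidea and Dio2, and 7 of the other 11 were higher, or 6 without those that reached the minimum through the rosiglitazone group alone. Elovl3, a fatty acid elongase, measured 4.85, 5.27 and 9.78 with magnolol and 32.5, 28.3 and 59.3 with rosiglitazone, and reached the minimum mean through the rosiglitazone group alone, so no p is given for it. Kcnk3, a potassium channel of brown fat, measured 328, 225 and 471 with magnolol and 850.2, 633 and 921 with rosiglitazone (log2 1.28 ± 0.25, adjusted p = 0.00740).

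**Figure D3:**
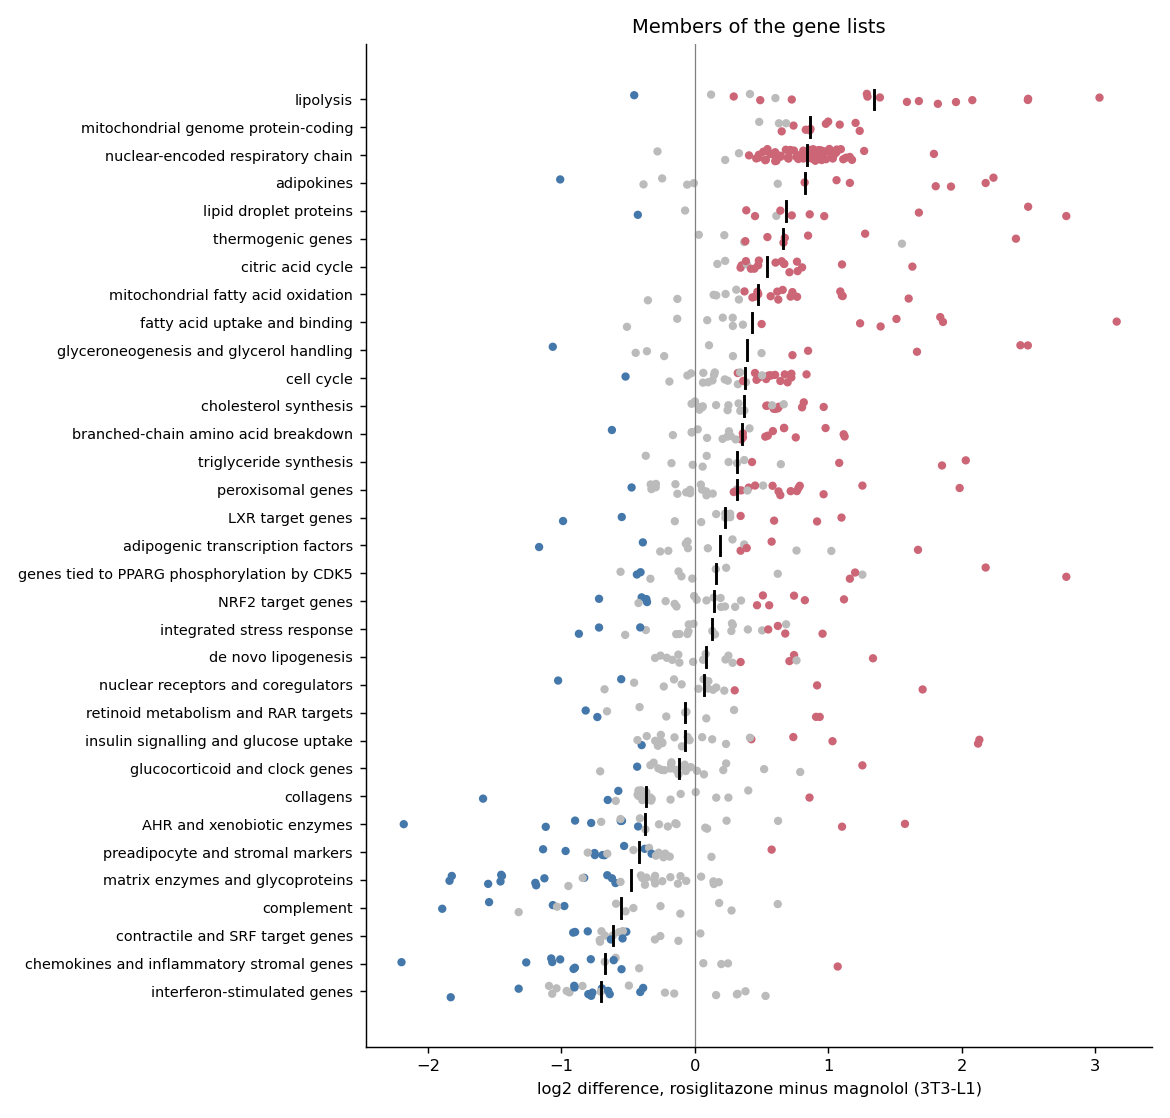
Log2 difference (rosiglitazone minus magnolol) of each tested member of the 33 gene lists. Red points were called higher with rosiglitazone, blue points higher with magnolol and grey points were not called, and the black bar is the median of the list. Lists of lipid handling and mitochondria lie to the right, and matrix, contractile, chemokine and interferon lists to the left.

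Matrix genes were lower with rosiglitazone. Of 32 matrix enzymes and glycoproteins, 13 were lower and 0 higher (median -0.48), or 5 lower without magnolol replicate 2, and 16 were lower with the length trend removed. Fn1, fibronectin, measured 113808, 128750.0 and 128291 with magnolol and 30619, 63008 and 38963 with rosiglitazone (log2 -1.55 ± 0.24, adjusted p = 0.00354). Ogn, osteoglycin, a small leucine-rich proteoglycan, measured 6781, 9731 and 7934 with magnolol and 1664, 2514 and 2738 with rosiglitazone (log2 -1.84 ± 0.19, adjusted p = 0.00141). Timp3, an inhibitor of matrix metalloproteinases, measured 817, 1036 and 374 with magnolol and 182, 338 and 115 with rosiglitazone (log2 -1.82 ± 0.42, adjusted p = 0.0138), and was not called without magnolol replicate 2 (adjusted p = 0.0650). In these 3 genes every magnolol library stood above every rosiglitazone library. Collagens were less clear, and without the block the share of them lower was near the 12.2% of all genes. Of 21 tested, 3 were lower and 1 higher (median -0.36), 9 were lower with the block, 8 were lower and 2 higher without rosiglitazone replicate 2, 1 was lower without magnolol replicate 3, 9 were lower with quantile normalisation, 8 were lower with all 5 groups in the fit, and 2 were lower and 3 higher with the length trend removed, which moved the median to -0.10. Col12a1, a fibril-associated collagen, measured 5011, 6058 and 8153 with magnolol and 1274, 3144 and 2281 with rosiglitazone (log2 -1.59 ± 0.29, adjusted p = 0.00619). Col1a2, a chain of type I collagen, measured 118625, 129558 and 140671 with magnolol and 77119, 111076 and 104985 with rosiglitazone (log2 -0.42, adjusted p = 0.113) and was called with the block (adjusted p = 0.0346). Col15a1, a basement membrane collagen, was the 1 higher gene at 384, 306 and 257 with magnolol and 585, 742 and 419 with rosiglitazone (log2 0.86 ± 0.21, adjusted p = 0.0188), and was not called without magnolol replicate 2 (adjusted p = 0.0709) or without magnolol replicate 3 (adjusted p = 0.0674).

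The contractile list had 6 of 17 genes lower and 0 higher (median -0.61), with 14 lower under the block and 3 without magnolol replicate 2. Cnn2, calponin 2, measured 3489, 4452 and 3349.5 with magnolol and 1673, 2566 and 1822 with rosiglitazone (log2 -0.91 ± 0.17, adjusted p = 0.00648). Flna, filamin A, an actin crosslinker, measured 17667, 18638 and 21348 with magnolol and 7633, 13072 and 10920.5 with rosiglitazone (log2 -0.90 ± 0.18, adjusted p = 0.00884, and -0.57 with the length trend removed). The groups overlapped in neither gene. Of 20 preadipocyte and stromal markers, 9 were lower and 1 higher, and 5 without magnolol replicate 1 or 4 without magnolol replicate 2. Sfrp2, a secreted Wnt modulator, measured 503, 539 and 539 with magnolol and 203, 271 and 248 with rosiglitazone (log2 -1.14 ± 0.14, adjusted p = 0.00177).

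Chemokine and interferon-linked genes were lower with rosiglitazone. Of 17 chemokines and inflammatory stromal genes, 10 were lower and 1 higher (median -0.67), or 4 lower without magnolol replicate 2. Cxcl13, a B cell attractant, measured 87.3, 149.8 and 220.1 with magnolol and 24.1, 25.01 and 45.7 with rosiglitazone (log2 -2.20 ± 0.36, adjusted p = 0.00421). Csf1, the macrophage growth factor, measured 3438, 4137 and 4655 with magnolol and 1265, 1889 and 2003 with rosiglitazone (log2 -1.26 ± 0.18, adjusted p = 0.00280). Hp, haptoglobin, was the 1 higher gene at 1092, 1298 and 1574 with magnolol and 3355, 2097 and 2950.2 with rosiglitazone (log2 1.07 ± 0.18, adjusted p = 0.00499). Of 28 interferon-stimulated genes, 12 were lower and 0 higher (median -0.70), or 7, 3 and 4 lower without magnolol replicates 1, 2 and 3 in turn. With the block 2 were higher, and 1 was higher without rosiglitazone replicate 2. Of the 28 genes 4 reached the minimum mean through the magnolol group alone, so they had to be lower with rosiglitazone to be tested. They count in the median, and 0 of them were called. Gbp7, a guanylate-binding protein, measured 206, 182 and 286 with magnolol and 56.5, 96.8 and 123.5 with rosiglitazone (log2 -1.32 ± 0.28, adjusted p = 0.0107). Oasl2, an oligoadenylate synthetase-like gene, measured 101, 71.7 and 63.6 with magnolol and 19.9, 10.9 and 42.0 with rosiglitazone (log2 -1.83 ± 0.43, adjusted p = 0.0146), and was not called without magnolol replicate 2 (adjusted p = 0.0541). Of 14 complement genes, 4 were lower and 0 higher, and 7 were lower and 1 higher with the block, and 1 was higher without rosiglitazone replicate 2. Masp1, a protease of the lectin pathway, measured 1149, 1412 and 1517 with magnolol and 262, 475 and 384 with rosiglitazone (log2 -1.89 ± 0.20, adjusted p = 0.00149). C1s1, a protease of the classical pathway, measured 2267, 2875 and 3749.7 with magnolol and 1002, 1441 and 1854 with rosiglitazone (log2 -1.06 ± 0.23, adjusted p = 0.0109). C3, the central component, was not called (log2 -0.59, adjusted p = 0.0893) and was called with the block (adjusted p = 0.000484) or without magnolol replicate 1 (adjusted p = 0.0414). The part of the macrophage markers in these values was not tested.

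**Figure D4:**
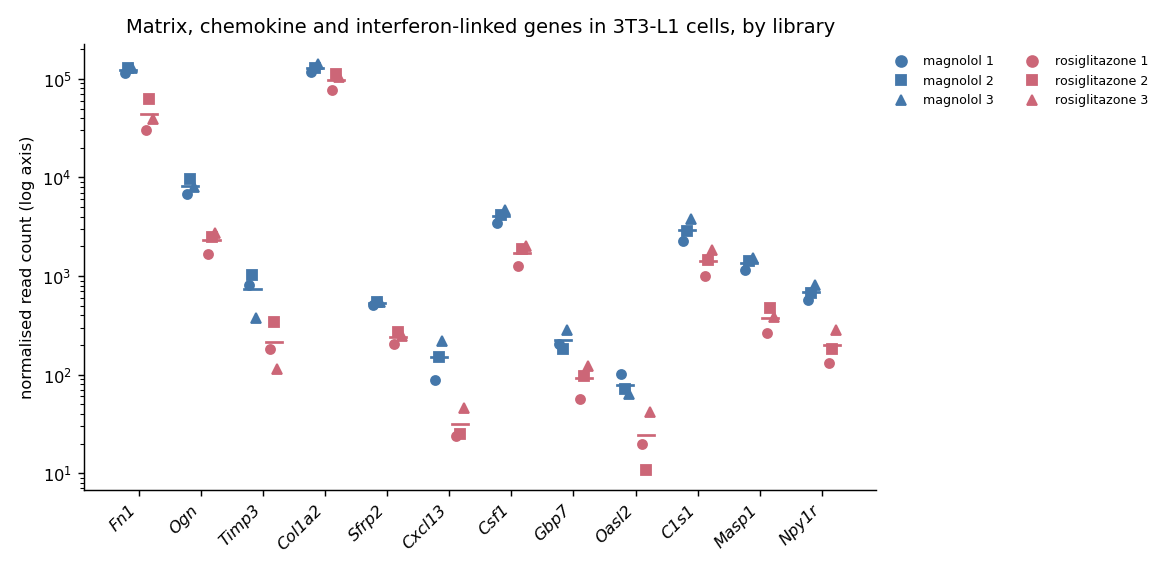
Normalised read counts (log axis) of 12 genes in each of the 6 libraries, with marker shape for the replicate number and a line at the group mean. All 12 are higher with magnolol on average, and Fn1 runs from 113808 to 128750.0 with magnolol and from 30619 to 63008 with rosiglitazone.

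Cell cycle genes were higher with rosiglitazone, 16 of 32 with 1 lower (median 0.37), but 4 without magnolol replicate 2. Birc5, survivin, a mitotic regulator, measured 392, 287 and 390.3 with magnolol and 627, 683 and 588 with rosiglitazone (log2 0.84 ± 0.15, adjusted p = 0.00522). Ccne1, cyclin E1, measured 339, 242 and 351 with magnolol and 486, 476 and 563 with rosiglitazone (log2 0.72 ± 0.16, adjusted p = 0.0122). Cdkn1b, a cyclin-dependent kinase inhibitor, was the 1 lower gene (log2 -0.52, adjusted p = 0.0123), not called without magnolol replicate 2 (adjusted p = 0.0517) or without magnolol replicate 3 (adjusted p = 0.0534). Of 23 cholesterol synthesis genes, 9 were higher and 0 lower, 16 with the block and 3 without magnolol replicate 2. Msmo1, a sterol demethylase, measured 2068, 1753 and 2087 with magnolol and 3742, 2993 and 3699.9 with rosiglitazone (log2 0.82 ± 0.12, adjusted p = 0.00315). Fdps, farnesyl diphosphate synthase, measured 1099, 865 and 1098 with magnolol and 1988, 1485 and 1886 with rosiglitazone (log2 0.80 ± 0.14, adjusted p = 0.00540).

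Nqo1, the quinone reductase that dicoumarol inhibits, measured 1367, 1575 and 1008 with magnolol and 1282, 1558 and 1120.1 with rosiglitazone, with the groups overlapping (log2 0.02, adjusted p = 0.957, interval -0.37 to 0.41). Of 23 NRF2 target genes, 6 were higher and 4 lower, and the 4 lower calls became 0 without magnolol replicate 2 or without rosiglitazone replicate 3, and 1 without magnolol replicate 1 or 3 or without rosiglitazone replicate 1. With the length trend removed 2 were lower. Taldo1, transaldolase, measured 2621, 2097 and 2341 with magnolol and 5796, 4301 and 5292 with rosiglitazone (log2 1.12 ± 0.13, adjusted p = 0.00171). Among 21 genes of the aryl hydrocarbon receptor and xenobiotic enzymes, 2 were higher and 7 lower, or 2 lower without magnolol replicate 2 and 11 lower with the block. Mgst3, a membrane glutathione transferase, measured 2144, 1708 and 1615 with magnolol and 6776, 4502 and 5142 with rosiglitazone (log2 1.58 ± 0.16, adjusted p = 0.00139). Mgst1, its relative, was 2.15-fold higher (log2 1.10, adjusted p = 0.00171). Fmo2, a flavin monooxygenase, measured 160.0, 143 and 68.5 with magnolol and 30.4, 44.6 and 11.1 with rosiglitazone (log2 -2.18 ± 0.48, adjusted p = 0.0118), and was not called without magnolol replicate 2 (adjusted p = 0.0580). Ugt1a7c measured 515, 532 and 478 with magnolol and 302, 299.9 and 223 with rosiglitazone (log2 -0.90, adjusted p = 0.00420), but it shares exons with other genes of its cluster, so the value is uncertain.

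Of 23 integrated stress response genes 4 were higher and 3 lower, shares near the 14.6% and 12.2% of all genes. The lower count was 1 without magnolol replicate 1 or 2 or with the length trend removed. With the block 8 were higher and 5 lower. Nupr1, a stress-induced chromatin factor, measured 1025, 921 and 872 with magnolol and 2345, 1526 and 1689 with rosiglitazone (log2 0.96 ± 0.16, adjusted p = 0.00412). Of 13 LXR target genes 4 were higher and 2 lower, or 2 higher and 0 lower without magnolol replicate 2, and 1 lower without magnolol replicate 3, rosiglitazone replicate 1 or rosiglitazone replicate 3, or with the length trend removed. Lpcat3, which remodels phospholipids, was 1.51-fold higher (log2 0.60, adjusted p = 0.00568). Abca1, the cholesterol exporter, was not called (log2 0.05, adjusted p = 0.761, interval -0.20 to 0.29), and was called higher with the length trend removed (log2 0.42, adjusted p = 0.00696). Of 11 retinoid genes 2 were higher and 2 lower, also near the shares of all genes. The higher count was 1 without magnolol replicate 2 or rosiglitazone replicate 3, and 4 were lower with the block. Retsat, retinol saturase, measured 2586, 2514 and 2309.8 with magnolol and 5034, 4684 and 4472 with rosiglitazone (log2 0.94 ± 0.10, adjusted p = 0.00139). Aldh1a1, which makes retinoic acid, measured 938, 1109.6 and 1015 with magnolol and 441, 652 and 669 with rosiglitazone (log2 -0.82 ± 0.16, adjusted p = 0.00828). Of 15 genes tied to CDK5 phosphorylation of PPARγ 4 were higher and 2 lower, and 0 were lower without magnolol replicate 2 or 3 or without rosiglitazone replicate 3, and 4 with the block. Peg10, a retrotransposon-derived gene, was among the higher ones at 9713, 9734 and 6812 with magnolol and 21856, 20696 and 17354 with rosiglitazone (log2 1.20 ± 0.16, adjusted p = 0.00231). Of 23 glucocorticoid and clock genes 1 was higher and 1 lower, with 3 higher and 5 lower under the block. The lower count was 2 without rosiglitazone replicate 1, 3 without rosiglitazone replicate 2 and 0 without any 1 of the other 4 libraries, and the higher count was 0 without magnolol replicate 2.

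Among genes averaging 100 or more whose groups stood apart, the largest differences included several predicted genes. Gm43118, a lncRNA (chromosome 5, 111535381 to 111536155, as deposited) antisense to Pitpnb, measured 64.2, 2.41 and 0.0215 with magnolol and 553, 197 and 177 with rosiglitazone (log2 5.47 ± 1.21, adjusted p = 0.0119), with a value near 0 in magnolol replicate 3. It was not called without magnolol replicate 2 (adjusted p = 0.0563), and its log2 difference was 7.18 without magnolol replicate 1 and 4.18 without magnolol replicate 3. Gm45244, antisense to Acsl1, measured 95.2, 50.3 and 72.6 with magnolol and 1345, 239 and 773 with rosiglitazone (log2 3.14 ± 0.51, adjusted p = 0.00428, or 3.84 without rosiglitazone replicate 2). Gm37376, antisense to Malat1, was highest in rosiglitazone replicate 1, at 24.1, 14.8 and 8.93 with magnolol and 531, 37.2 and 70.6 with rosiglitazone (log2 2.84 ± 0.80, adjusted p = 0.0292), and was not called without magnolol replicate 2 (adjusted p = 0.0894) or 3 (adjusted p = 0.0896), with log2 differences of 1.73 without rosiglitazone replicate 1 and 3.63 without rosiglitazone replicate 2. Gm45234, which overlaps Atn1 and Grcc10 on the same strand, measured 743, 915 and 1115 with magnolol and 32.5, 479.9 and 95.05 with rosiglitazone (log2 -2.98 ± 0.73, adjusted p = 0.0178), not called without magnolol replicate 2 (adjusted p = 0.0649) or 3 (adjusted p = 0.0542), with -2.09 without rosiglitazone replicate 1 and -4.01 without rosiglitazone replicate 2. No label or header states how the counter treated strand, so reads of these genes and of their overlapping partners cannot be told apart. Rab43 and Smim36 overlap a same-strand gene as well and are uncertain too, as are named genes with an antisense neighbour such as Ncoa3, Smpd3 and Adamts4. Rab43 and Smim36 stood at log2 -2.02 and 2.52.

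Other genes with large differences have known products. Arxes1, an adipocyte-linked gene with a near-identical copy, measured 44.3, 15.3 and 31.5 with magnolol and 294, 188 and 170.2 with rosiglitazone (log2 2.88 ± 0.36, adjusted p = 0.00220), so its value is uncertain. Ubd, a ubiquitin-like protein, measured 35.9, 22.1 and 58.7 with magnolol and 207, 183 and 296 with rosiglitazone (log2 2.60 ± 0.33, adjusted p = 0.00220). Olr1, a receptor for oxidised lipoprotein, measured 85.4, 88.6 and 47.0 with magnolol and 489, 397 and 415 with rosiglitazone (log2 2.59 ± 0.24, adjusted p = 0.00109). In the other direction Il31ra, an interleukin receptor, measured 171, 216 and 163 with magnolol and 33.5, 78.3 and 42.0 with rosiglitazone (log2 -1.90 ± 0.29, adjusted p = 0.00355), and is uncertain too, since it overlaps the same-strand pseudogene Gm3226. Npy1r, a neuropeptide Y receptor, measured 568, 673 and 806 with magnolol and 132, 181 and 282 with rosiglitazone (log2 -1.83 ± 0.25, adjusted p = 0.00247). Plxna4, a semaphorin co-receptor, measured 173, 238 and 214 with magnolol and 36.7, 100.0 and 70.4 with rosiglitazone (log2 -1.68 ± 0.32, adjusted p = 0.00717). Smpd3, a neutral sphingomyelinase, measured 117, 159 and 194 with magnolol and 42.2, 51.4 and 50.8 with rosiglitazone (log2 -1.66 ± 0.22, adjusted p = 0.00240). Abca9, a lipid transporter, measured 157, 198 and 217 with magnolol and 25.2, 71.8 and 114 with rosiglitazone (log2 -1.66 ± 0.44, adjusted p = 0.0237), and was not called without magnolol replicate 2 (adjusted p = 0.0836) or 3 (adjusted p = 0.0730), with -1.06 without rosiglitazone replicate 1.

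The letters of a direct repeat with 1 base between the half-sites, the classical PPARγ and RXR site, were searched on both strands of the 250 bases before each RefSeq start (GRCm38.p6), as AGGNCA, then any base, then AGGNCA again. They stood in 27 of 10150 tested genes with a promoter (0.266%), in 2 of 1554 genes higher with rosiglitazone (0.129%), in 2 of 1407 higher with magnolol (0.142%) and in 23 of 7189 not called (0.320%). The 2 rosiglitazone genes with a match are among the 194 at least 2-fold higher (1.03%), and 0 of 205 genes at least 2-fold higher with magnolol had one. The 2 genes higher with rosiglitazone are shown because they have a match, and were chosen after their values were seen. Both matches lie on the strand opposite the gene, and capitals mark them.
Bco1, chr8:117095615-117095864, plus strand: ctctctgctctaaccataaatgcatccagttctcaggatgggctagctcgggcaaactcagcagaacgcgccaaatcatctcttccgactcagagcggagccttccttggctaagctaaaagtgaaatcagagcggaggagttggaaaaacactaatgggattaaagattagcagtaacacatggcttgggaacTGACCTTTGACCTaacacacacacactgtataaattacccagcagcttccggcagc
Slc13a4, chr6:35308127-35308376, minus strand: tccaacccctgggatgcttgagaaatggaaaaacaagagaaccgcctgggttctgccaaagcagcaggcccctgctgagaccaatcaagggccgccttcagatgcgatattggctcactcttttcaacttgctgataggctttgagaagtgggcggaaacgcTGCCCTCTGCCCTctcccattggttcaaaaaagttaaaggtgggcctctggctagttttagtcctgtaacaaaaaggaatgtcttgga
Bco1, which cleaves β-carotene to retinal, measured 15.5, 14.8 and 16.6 with magnolol and 38.8, 34.8 and 44.5 with rosiglitazone (log2 1.27 ± 0.27, adjusted p = 0.0103). Slc13a4, a sulphate transporter, measured 42.7, 16.9 and 34.2 with magnolol and 86.0, 66.3 and 119 with rosiglitazone (log2 1.56 ± 0.35, adjusted p = 0.0132). A match is a description of these letters, not of binding.

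In DFAT cells the same 2 compounds gave fewer calls. Of 14862 genes tested, 1173 (7.89%) differed, 528 (3.55%) higher with rosiglitazone and 645 (4.34%) higher with magnolol, and 2466 with the block (1196, 8.05%, and 1270, 8.55%). The count fell to 659 without magnolol replicate 1 and to 652 without magnolol replicate 2. DFAT libraries were deeper, with an estimated 44.8 to 67.4 M reads, and species, medium and dexamethasone dose differed from the 3T3-L1 cultures, so system and conditions cannot be told apart. Of 1479 matched genes higher in 3T3-L1, 99 were also higher in DFAT (6.69% of these and 25.2% of the 393 in DFAT), and of 1387 lower, 187 were also lower (13.5%, and 42.5% of 440). Calls were opposite for 65 genes lower in 3T3-L1 and higher in DFAT (16.5% of the 393) and for 16 the other way. Over all 9370 matched genes 15.8% were called higher and 14.8% lower in 3T3-L1, against 4.19% higher and 4.70% lower for DFAT.

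Of 9370 genes matched by symbol, the difference between compounds differed between systems in 1681 (17.9%), 790 (8.43%) with 3T3-L1 above DFAT and 891 (9.51%) below. The count was 999 without 3T3-L1 magnolol replicate 2, 2677 without 3T3-L1 rosiglitazone replicate 2, 1000 without DFAT magnolol replicate 1 and 931 without DFAT magnolol replicate 2, and 3743 with the block. The respiratory chain stood apart most, with 45 of 54 matched genes above DFAT and 0 below. In DFAT alone 1 of 66 was higher (median 0.09). Neither the DFAT fit nor the comparison of systems was corrected for transcript length. In 3T3-L1 the median of this list fell from 0.84 to 0.60 with the length trend removed. The part of that trend in the difference between systems was not tested. Cycs was 3874 ± 141 with magnolol and 4975 ± 129.6 with rosiglitazone in DFAT (log2 0.36, adjusted p = 0.00719), and the difference between systems was 1.43 ± 0.20, adjusted p = 0.000789. Idh3a was 5988 ± 147 with magnolol and 6885 ± 411 with rosiglitazone in DFAT (log2 0.20, adjusted p = 0.130), with a difference between systems of 1.43 ± 0.16, adjusted p = 0.000298. Interferon-stimulated genes were lower with rosiglitazone in both systems, 12 of 28 in 3T3-L1 and 13 of 23 in DFAT, and the difference between systems was called in 0 of 20 matched genes by limma (5 above and 1 below DFAT with the block). Collagens were lower in 12 of 20 DFAT genes (4.34% of all genes in DFAT), against 3 of 21 in 3T3-L1 (12.2% of all genes there). The difference between systems was called with 3T3-L1 above DFAT in 4 of 18 matched collagens and below in 0. Over all matched genes these shares were 8.43% and 9.51%. With the block 6 collagens were above and 1 below, against 1685 and 2058 of all 9370 genes.

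**Figure D5:**
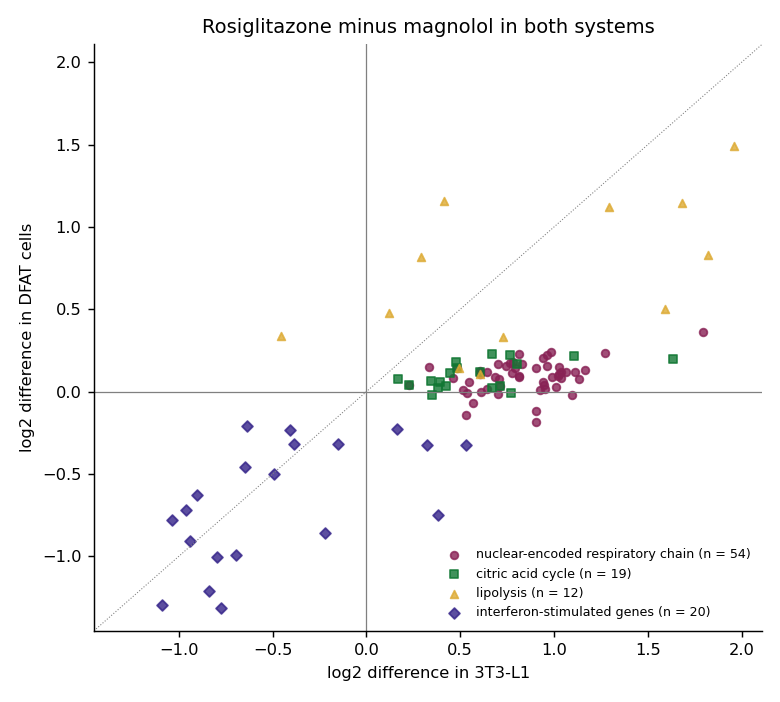
Log2 difference (rosiglitazone minus magnolol) in 3T3-L1 (horizontal) and DFAT cells (vertical) for members of 4 gene lists, with a dotted line of equality. The 54 respiratory chain genes lie near 0 in DFAT and to the right in 3T3-L1, while most interferon-stimulated genes lie below 0 in both. Among the latter, Ifi44, Mx1 and Mx2 reached the minimum mean in 3T3-L1 through the magnolol group alone, so they had to lie to the left. No value here was corrected for transcript length.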

How the data were processed

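Each library was deposited as 1 column of a table per system. The deposited values are a signal in the sense of a normalised quantity, gene counts that the authors divided by DESeq2 size factors, per the file headers. The submitters' processing notes also name bcl2fastq 2.19.1.403, STAR and the build GRCm38, while the deposited gene coordinates shared a start with only 2.18% of 24070 matched GENCODE genes of that build (95.5% shared the length), so coordinates are given as deposited. No label or header names the counter or its strand setting. Low values came out as whole reads (within 0.02, up to 20 reads) in 81.5 to 82.7% of cases in the 6 3T3-L1 libraries and in 90.1 to 90.7% in the 6 DFAT libraries compared, so raw counts were not restored and depth is an estimate.

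Genes averaging 10 or more in the fitted libraries were tested with limma 3.58.1 (R 4.3.3) on log2(value + 1), with a mean-variance trend and Benjamini-Hochberg adjustment, on the 6 libraries alone and without a block. DFAT cells had the same fit, and the difference between systems was tested in 1 model over 12 libraries, for genes matched by symbol. Same-numbered libraries deviated together across compounds (correlations of 0.37, 0.25 and 0.39 in 3T3-L1 and of 0.14, 0.27 and 0.27 in DFAT), so the numbers pair the samples, from the data and not from the labels. The alternatives were the block, all 5 groups, pseudocounts of 0.5 and 5, a minimum mean of 50, no filter, quantile normalisation, no variance trend and each library left out. Added after seeing the data were limma-voom on estimated reads, a lowess correction for transcript length (span 0.3) and both with the block. Genes named were a panel of 14, the 10 largest differences each way (average of 100 or more, groups apart), up to 3 called each way and 2 not called per list, and the 3 largest differences between systems each way. The members and the 33 lists were chosen with earlier results of these data known, and the ribosomal lists after seeing the length trend. On simulated data for the 3T3-L1 comparison (15573 genes) the fit recovered 32.8% of 1.5-fold, 59.4% of 2-fold and 87.3% of 4-fold changes, with 10 false among 128 calls. In that simulation 199 genes changed, a smaller share than was called in the data, with no pairing of replicates and no length trend. Its recovery may therefore differ from that in the data. A length trend was also simulated (15610 genes), by gene span rather than transcript length. It was stronger than in the data (rho = -0.90 against -0.42). There the fit made 6057 false calls, and 3 after correction for the same span that had been put in. These counts therefore do not carry over to the data. No 2 replicates agreed within sampling noise (chi-square per gene of at least 15.7). Some results that the rule for named genes would give are not reported here.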

Additional observations from a re-analysis of the deposited data

Results flagged for a closer look

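The difference between rosiglitazone and magnolol was not the same in 3T3-L1 and DFAT cells for 1681 of 9370 matched genes, by a limma test of the difference between systems. Values below are the 3T3-L1 log2 difference minus that of DFAT, with SE. They are given only for genes followed in both systems whose difference between systems was called. Some of these genes were named because that difference was among the largest. Their values with 1 library left out of the comparison of systems are not given here, and no cause was tested. Cib2, a calcium-binding protein, differed by 2.16 ± 0.27, adjusted p = 0.000402 between systems, from 2.28 in 3T3-L1 and 0.12, adjusted p = 0.620 in DFAT. Olfml2b, a matrix protein, differed by 1.95 ± 0.19, adjusted p = 0.000132 between systems, from -0.64 in 3T3-L1 and -2.59, adjusted p = 4.12e-07 in DFAT. The 3T3-L1 call of Olfml2b was lost without magnolol replicate 2 (adjusted p = 0.0630) or 3 (adjusted p = 0.0502). Agt differed by 1.90 ± 0.18, adjusted p = 0.000129 between systems, from 1.06 in 3T3-L1 and -0.83, adjusted p = 0.000620 in DFAT. Slc2a4 differed by 2.92 ± 0.47, adjusted p = 0.00174 between systems, from 2.13 in 3T3-L1 and -0.79, adjusted p = 0.169 in DFAT. Cycs differed by 1.43 ± 0.20, adjusted p = 0.000789 between systems, from 1.79 in 3T3-L1 and 0.36, adjusted p = 0.00719 in DFAT. Idh3a differed by 1.43 ± 0.16, adjusted p = 0.000298 between systems, from 1.63 in 3T3-L1 and 0.20, adjusted p = 0.130 in DFAT. Cebpa differed by 1.14 ± 0.36, adjusted p = 0.0431 between systems, from 1.67 in 3T3-L1 and 0.53, adjusted p = 0.0591 in DFAT. Fabp4 differed by 0.93 ± 0.29, adjusted p = 0.0395 between systems, from 3.16 in 3T3-L1 and 2.24, adjusted p = 2.59e-08 in DFAT. Pi15, a secreted peptidase inhibitor, differed by -3.55 ± 0.42, adjusted p = 0.000299 between systems, from -1.53 in 3T3-L1 and 2.02, adjusted p = 0.000165 in DFAT. Gprc5a, an orphan receptor, differed by -2.51 ± 0.24, adjusted p = 0.000129 between systems, from -1.37 in 3T3-L1 and 1.14, adjusted p = 7.14e-05 in DFAT. Adamts4, a matrix protease, differed by -2.44 ± 0.28, adjusted p = 0.000299 between systems, from -0.51 in 3T3-L1 and 1.93, adjusted p = 0.000132 in DFAT. The 3T3-L1 call of Adamts4 (adjusted p = 0.0456) was lost without any 1 of the 6 libraries, with log2 -0.34 and adjusted p = 0.163 without magnolol replicate 3, and with the length correction, limma-voom, no filter or no variance trend. Npy1r differed by -2.06 ± 0.29, adjusted p = 0.000797 between systems, from -1.83 in 3T3-L1 and 0.22, adjusted p = 0.156 in DFAT. DFAT libraries measured Slc2a4 at 47.3 ± 12.0 with magnolol and 27.1 ± 7.63 with rosiglitazone, and Pi15 at 64.0 ± 15.7 with magnolol and 261 ± 47.3 with rosiglitazone (SD, n = 3).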

How the results depend on the processing

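With the replicate block, which pairs same-numbered libraries, 7145 genes were called in 3T3-L1 (3632 higher with rosiglitazone, 3513 with magnolol), 2466 in DFAT and 3743 for the difference between systems. All 5 groups with the block gave 7367 (3662 and 3705) and limma-voom with the block 7272 (3780 and 3492), while the length correction with the block gave 2997 higher with magnolol. Without the variance trend the counts were 2484 in 3T3-L1 (1500 and 984) and 549 in DFAT. DFAT gave 1937 with all 5 groups and 627 with no filter. Leaving out 1 library gave 1485 to 5076 genes in 3T3-L1 (973 to 2597 higher with rosiglitazone, 512 to 2479 with magnolol), 652 to 1352 in DFAT and 931 to 2677 for the difference between systems. Of 108 genes named and tested in 3T3-L1, 98 were called, and 84 of these were called in the same direction under each of the 19 alternatives that gave them a value, with none reversed. Most were named because they were called with large differences, so these counts do not describe the 4216 calls. The 98 include Adrb3, Sfrp5 and Elovl3, which reached the minimum mean through the rosiglitazone group alone. The block changed no call of those 98. Signs turned only for genes that were not called. Scd2 turned to 0.18 with the length correction, with or without the block, and to 0.0046 with quantile normalisation, and ran from -0.10 to 0.035 with 1 library left out. Nqo1 turned to -0.16 with the length correction, with or without the block, and ran from -0.17 to 0.16 with 1 library left out. Rxra turned to -0.020 with quantile normalisation and ran from -0.098 to 0.12 with 1 library left out, while Scd1 ran from -0.076 to 0.49 and Abca1 from -0.010 to 0.14. The cause of these shifts was not tested. With 3 libraries a group, changes under 2-fold were often missed in simulated data, in which fewer genes changed than were called here.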

Other observations

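Ribosomal protein genes were listed after the length trend was seen. Without the length correction, all those called in 3T3-L1 cells were higher with rosiglitazone. Of 78 mitochondrial ribosomal proteins tested, 75 were higher and 0 lower (median 0.60), against 14.6% and 12.2% of all genes, and 61 were higher with the length trend removed (median 0.49). Of 77 cytosolic ribosomal proteins, 32 were higher and 0 lower (median 0.37). With the length trend removed 10 of the 77 were higher (median 0.11), a share near that of all genes under the same correction (1951 of 15525). Both lists hold short genes, with median transcript lengths of 1866.5 and 1094 bases against 2937 for all genes. Many cytosolic ribosomal protein genes have near-identical pseudogene copies, so their values are uncertain.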
